A study of Mus musculus with 6 samples.

Results

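The 9 genes described here are markers of microglia, the resident macrophages of the central nervous system, together with the 3 chains of complement C1q: C1qa, C1qb, C1qc, Trem2, Tyrobp, Csf1r, P2ry12, Fcrls and Aif1. They were measured in the spinal cord of Dhtkd1 null and wild-type mice by 14 array probes, out of 41174 non-control probes for 27343 gene names. The probes were chosen by gene name alone, as every non-control probe that carries one of the 9 symbols. Total RNA of whole spinal cord came from 3 Dhtkd1 null and 3 wild-type samples, 1 array each. All 6 samples are labelled as male C57BL/6 at 8 weeks, from mice kept under the same specific pathogen-free conditions. Dhtkd1 encodes a mitochondrial enzyme subunit that acts in lysine breakdown, and the labels do not say how the null allele was made or which part of the gene it lacks. The samples carry different numbers, but the labels do not state that each is a separate animal, so p-values reflect only the spread among these samples, which may be technical. The comparison asks which of these transcripts differ in the cord when Dhtkd1 is knocked out.

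C1q is the recognition molecule of the classical complement pathway, a secreted complex built from A, B and C chains that are encoded by separate genes, and in the central nervous system microglia are its main source. It tags synapses, cell debris and immune complexes for removal. Trem2 is a lipid-sensing surface receptor that signals through the membrane adaptor Tyrobp (DAP12), Csf1r is the receptor for the growth factors that keep microglia alive, and P2ry12 is an ADP receptor that guides microglial processes to damage. Fcrls is an Fc receptor-like scavenger protein that in the mouse marks microglia, and Aif1 (Iba1) is a calcium-binding protein of the actin cytoskeleton that is widely used to stain them.

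The C1q probes are shown because the 3 chains of this complex gave similar values, and probes that share sequence could read the same transcript. In the probes for the A and B chains, capitals mark the longest run of bases that they share (5 bases). Probe positions are those of the array files (mm9). The A chain probe lies at chr4:136452409-136452468 and the B chain probe at chr4:136436578-136436637, both on the minus strand, within the coding sequence.
C1qa probe: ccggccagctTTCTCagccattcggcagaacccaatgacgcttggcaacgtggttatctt
C1qb probe: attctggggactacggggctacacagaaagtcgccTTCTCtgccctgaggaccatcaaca
At the best ungapped alignment 18 of 60 bases matched between these probes. The C1qa and C1qc probes shared a run of 6 bases and matched at 19 of 60, and the C1qb and C1qc probes shared a run of 6 bases and matched at 18 of 60. The C1qc probe lies at positions 136445766 to 136445825 of the same strand. In the gene table used for names (GRCm38.p6), C1qb, C1qc and C1qa follow each other on chromosome 4 with no other listed gene between them.

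A binding motif of PU.1, the transcription factor that directs macrophage and microglial development, was searched in the stretches before the genes. The stretches of the 3 genes with a match and of C1qb, without one, are shown. Trem2 is shown though its signals overlapped between genotypes. Aif1, whose signals did not overlap and which held no match, is not shown. The sequences are the 250 bases before the annotated gene start in RefSeq (GRCm38.p6), a different build from that of the probes. Of the 9 genes 6 had an entry. Capitals mark the letters GAGGAAG or, on the opposite strand, CTTCCTC. Fcrls (chr3:87263525-87263774), C1qc (chr4:136892915-136893164) and Trem2 (chr17:48346151-48346400) each hold 1 match, and C1qb (chr4:136886201-136886450) holds none. Fcrls, C1qc and C1qb are on the minus strand and Trem2 is on the plus strand.
Fcrls promoter: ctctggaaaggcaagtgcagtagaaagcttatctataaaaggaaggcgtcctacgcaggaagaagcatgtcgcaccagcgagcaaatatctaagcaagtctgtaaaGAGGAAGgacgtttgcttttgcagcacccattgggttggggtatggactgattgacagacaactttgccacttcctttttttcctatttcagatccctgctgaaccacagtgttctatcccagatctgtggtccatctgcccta
C1qc promoter: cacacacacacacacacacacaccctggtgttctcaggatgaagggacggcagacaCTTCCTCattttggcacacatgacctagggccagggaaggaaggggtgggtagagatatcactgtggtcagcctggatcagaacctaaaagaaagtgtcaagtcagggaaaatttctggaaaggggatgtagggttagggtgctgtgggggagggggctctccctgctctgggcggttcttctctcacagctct
Trem2 promoter: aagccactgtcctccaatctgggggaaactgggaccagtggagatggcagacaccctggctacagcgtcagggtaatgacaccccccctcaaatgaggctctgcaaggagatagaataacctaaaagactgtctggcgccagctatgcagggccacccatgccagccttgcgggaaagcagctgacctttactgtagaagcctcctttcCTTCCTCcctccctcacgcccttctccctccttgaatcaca
C1qb promoter: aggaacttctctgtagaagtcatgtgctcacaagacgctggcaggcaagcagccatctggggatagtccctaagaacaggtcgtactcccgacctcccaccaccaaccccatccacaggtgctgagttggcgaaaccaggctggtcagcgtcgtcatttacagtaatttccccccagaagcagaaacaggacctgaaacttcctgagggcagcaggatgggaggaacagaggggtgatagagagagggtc
The match starts 144 bases before the gene start in Fcrls, 194 in C1qc and 41 in Trem2. C1qb, Aif1 and P2ry12 had no match, so 3 of 6 genes held the letters, against 10.66% of 32544 RefSeq promoter windows of the same length. The motif was chosen with results of these data known, and a match is a description of letters, not of binding.

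On the arrays, 8 of the 9 genes had a higher mean signal in Dhtkd1 null than in wild-type cords, and P2ry12 had a lower one. Of all 21438 genes 55.9% had a higher mean in null cords. Signals are log2 values relative to the 75th percentile of each array, and each gene is represented by its brightest probe. C1qa, C1qb, C1qc, Tyrobp, Fcrls and Aif1 were higher on all 3 null arrays than on all 3 wild-type arrays. That is 6 of 9 genes, where 9.66% of all genes did so, and 0 of 9 lay wholly lower, where 5.19% did. The same 6 genes had an unadjusted p under 0.05 by limma, with unadjusted p between 0.0175 and 0.0453, where 5.81% of genes did so in the higher direction. In the lower direction 0 of 9 had one, against 2.94% of genes. After Benjamini-Hochberg adjustment over 33190 probes, 0 of the 14 probes passed at an adjusted p under 0.05, and of all probes 0% passed, so none of these genes is called changed. In RNA of whole cord, a difference in the number of cells of a type and a difference in RNA per cell cannot be told apart. The median difference of the 9 genes was 0.41 log2 units in null minus wild-type, against 0.02 over all genes.

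The count of 6 genes at an unadjusted p under 0.05 depended on single arrays and on the slide. It was 1 without null replicate 2 (Fcrls), where 3.86% of all genes were called higher, and 1 without null replicate 3 (Tyrobp), where 4.03% were. Leaving out wild-type replicate 2 gave 3 (C1qa, C1qb and Aif1), against 6.41% of all genes. Leaving out wild-type replicate 1 gave 3 (C1qa and C1qb higher, P2ry12 lower), against 8.73% of all genes higher and 4.32% lower. The arrays lay on 2 slides: slide 1 held the 3 null arrays and wild-type replicate 2, and slide 2 held wild-type replicates 1 and 3. With slide as a block, which amounts to the 3 null arrays against wild-type replicate 2, the count was 1 (Fcrls), against 4.43% of all genes, and the median difference was 0.33. That the 6 genes were higher on each null array than on wild-type replicate 2 follows from their lack of overlap and is no separate result.

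**Figure D1:**
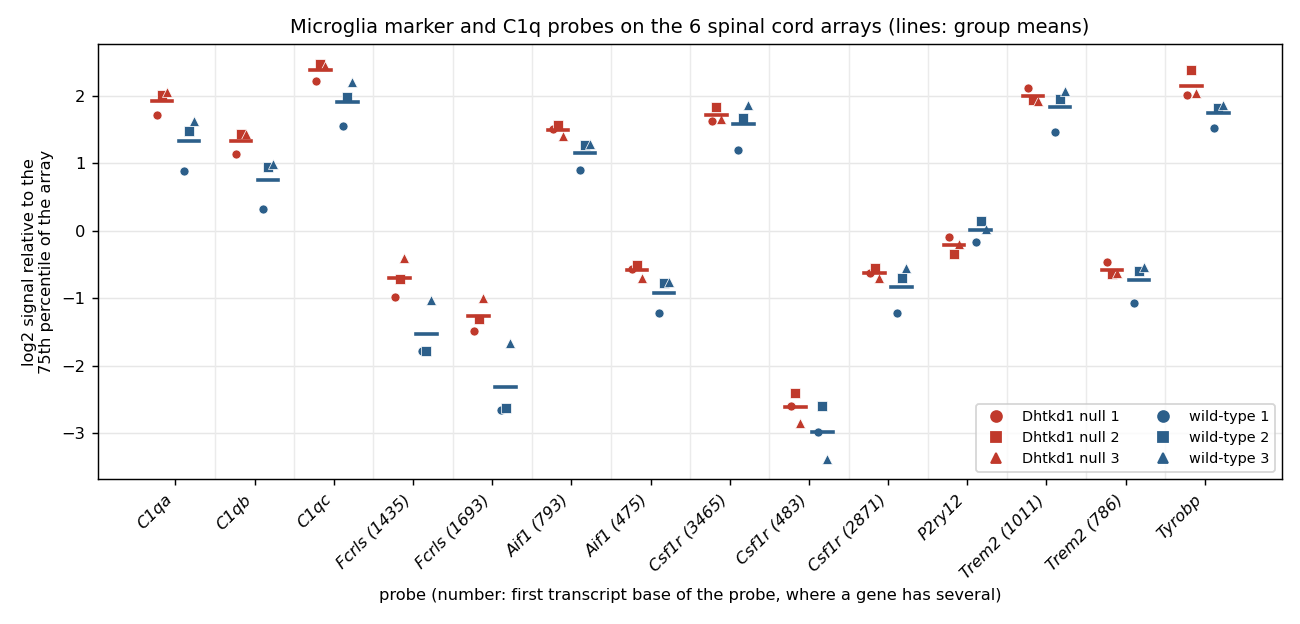
Log2 signal relative to the 75th percentile of the array (vertical axis) of the 14 probes (horizontal axis) on the 3 Dhtkd1 null arrays (red, left) and the 3 wild-type arrays (blue, right). Each point is 1 array, the marker gives its replicate number and the lines are group means. The red and blue points are separate for C1qa, C1qb, C1qc, both Fcrls probes, both Aif1 probes and Tyrobp, and wild-type replicate 1 is the lowest point at 12 of the 14 probes.

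Among the complement genes, the C1q chains showed similar differences. C1qa had log2 signals of 1.72, 2.01 and 2.06 on the null arrays, against 0.89, 1.48 and 1.63 on the wild-type arrays. The groups did not overlap, with null replicate 1 the lowest of its group and wild-type replicate 1 far below the other wild-type arrays. C1qa averaged 1.93 ± 0.18 in null and 1.33 ± 0.39 in wild-type cords (SD, n = 3 each), a log2 difference of 0.60 (SE 0.22, limma adjusted p 0.591), or 1.51-fold. C1qb had 1.14, 1.43 and 1.44 on the null arrays, against 0.31, 0.94 and 0.99 on the wild-type arrays. The arrays took the same order as for C1qa. C1qb averaged 1.33 ± 0.17 in null and 0.75 ± 0.38 in wild-type cords (SD, n = 3 each). Its difference was 0.58 (SE 0.21, limma adjusted p 0.580). C1qc had 2.22, 2.47 and 2.44 on the null arrays, against 1.54, 1.98 and 2.21 on the wild-type arrays. Here null replicate 1 and wild-type replicate 3 were nearly level. C1qc averaged 2.38 ± 0.14 in null and 1.91 ± 0.34 in wild-type cords (SD, n = 3 each), and the difference was 0.46 (SE 0.18, limma adjusted p 0.602), or 1.38-fold. Of all genes tested, 96.6% had a lower difference than C1qa, 96.5% than C1qb and 94.4% than C1qc. Averaged over the 3 chains after centring each on its own mean, the arrays stood at 0.08, 0.37 and 0.37 in null and -0.69, -0.14 and 0.00 in wild-type cords. Within slide 1 the differences of C1qa, C1qb and C1qc were 0.45, 0.39 and 0.39, and each 95% interval of these included 0.

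Trem2 and its adaptor Tyrobp had different values. Tyrobp (probe on chromosome 7, 31200651 to 31202378, 60 bases spread over 1728 bases of genome) had 2.01, 2.38 and 2.04 on the null arrays, against 1.53, 1.82 and 1.87 on the wild-type arrays. The groups did not overlap, and null replicate 2 stood above the rest. Tyrobp averaged 2.14 ± 0.21 in null and 1.74 ± 0.18 in wild-type cords (SD, n = 3 each). The difference was 0.41 (SE 0.15, limma adjusted p 0.586), or 1.33-fold. Trem2 (chromosome 17, 48491522 to 48491581) had 2.11, 1.94 and 1.93 on the null arrays, against 1.46, 1.95 and 2.07 on the wild-type arrays. Its groups overlapped, and only wild-type replicate 1 lay apart from the other 5 arrays. Trem2 averaged 1.99 ± 0.10 in null and 1.83 ± 0.32 in wild-type cords (SD, n = 3 each). The difference was 0.16 at both of its probes (95% intervals of -0.26 to 0.58 and -0.23 to 0.56, limma adjusted p 0.798 and 0.787), and it was -0.02 and -0.01 without wild-type replicate 1. Whether Trem2 and Tyrobp differ from each other in their response was not tested.

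Csf1r, on chromosome 18, was read by 3 probes, which start at bases 3465, 483 and 2871 of its transcript. The brightest, at base 3465, had 1.63, 1.83 and 1.66 on the null arrays, against 1.19, 1.68 and 1.86 on the wild-type arrays. Wild-type replicate 3 was the highest of all 6 arrays and wild-type replicate 1 the lowest, so the groups overlapped. This probe averaged 1.71 ± 0.11 in null and 1.57 ± 0.34 in wild-type cords (SD, n = 3 each). The difference was 0.13 (95% interval -0.31 to 0.58, limma adjusted p 0.842), and -0.06 without wild-type replicate 1. The probe at base 483 had -2.60, -2.41 and -2.85 on the null arrays, against -2.98, -2.60 and -3.39 on the wild-type arrays. It had the widest wild-type spread of the 3 probes, and its difference of 0.37 (SE 0.22, limma adjusted p 0.685) was -0.02 within slide 1. The probe at base 2871 differed by 0.20 (SE 0.18, limma adjusted p 0.773).

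P2ry12 was the single gene of the 9 with a lower mean in null cords. Its probe on chromosome 3 (59020598 to 59020657) had -0.09, -0.35 and -0.19 on the null arrays, against -0.17, 0.15 and 0.03 on the wild-type arrays. Null replicate 1 lay within the wild-type range, so the groups overlapped. P2ry12 averaged -0.21 ± 0.13 in null and 0.00 ± 0.16 in wild-type cords (SD, n = 3 each). The difference was -0.22 (SE 0.12, 95% interval -0.50 to 0.07, limma adjusted p 0.661), and -0.36 within slide 1, where wild-type replicate 2 was above all 3 null arrays. It was also the gene of the 9 for which wild-type replicate 1 was not the lowest array. Its neighbour P2ry13, a related ADP receptor, differed by -0.17 (SE 0.12, limma adjusted p 0.720).

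Fcrls showed the widest difference of the 9 genes, at both of its probes on chromosome 3. The brighter probe (87056422 to 87056481) had -0.98, -0.72 and -0.40 on the null arrays, against -1.78, -1.78 and -1.03 on the wild-type arrays. On the linear scale these were 50.7%, 60.9% and 75.5% of the 75th percentile of the array in null cords, against 29.0%, 29.2% and 49.1% in wild-type cords. The groups came close to touching at null replicate 1 and wild-type replicate 3, and the other wild-type arrays lay well below. This probe averaged -0.70 ± 0.29 in null and -1.53 ± 0.44 in wild-type cords (SD, n = 3 each). The difference was 0.83 (SE 0.25, limma adjusted p 0.552), or 1.78-fold, and 98.4% of all genes had a lower difference. The other probe (87055125 to 87055184) had -1.49, -1.31 and -1.002 on the null arrays, against -2.65, -2.62 and -1.66 on the wild-type arrays. It ordered the arrays in the same way and gave a difference of 1.05 (SE 0.30, limma adjusted p 0.537), or 2.06-fold. Within slide 1 the Fcrls differences were 1.08 and 1.36, with 95% intervals of 0.14 to 2.02 and 0.28 to 2.44 that did not include 0. Without null replicate 3, wild-type replicate 1 or wild-type replicate 2 the unadjusted p of its brighter probe was above 0.05.

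Aif1, on chromosome 17, was also read by a pair of probes with the same difference. The brighter (35307959 to 35308018) had 1.51, 1.56 and 1.41 on the null arrays, against 0.90, 1.27 and 1.29 on the wild-type arrays. The null arrays lay close together and above all wild-type arrays. This probe averaged 1.49 ± 0.08 in null and 1.15 ± 0.22 in wild-type cords (SD, n = 3 each). The difference was 0.34 (SE 0.13, limma adjusted p 0.597), or 1.27-fold. The other probe had -0.56, -0.51 and -0.69 on the null arrays, against -1.23, -0.78 and -0.77 on the wild-type arrays, and differed by 0.34 (SE 0.15, limma adjusted p 0.616). Here too the groups did not overlap, though null replicate 3 and wild-type replicate 3 were close.

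**Figure D2:**
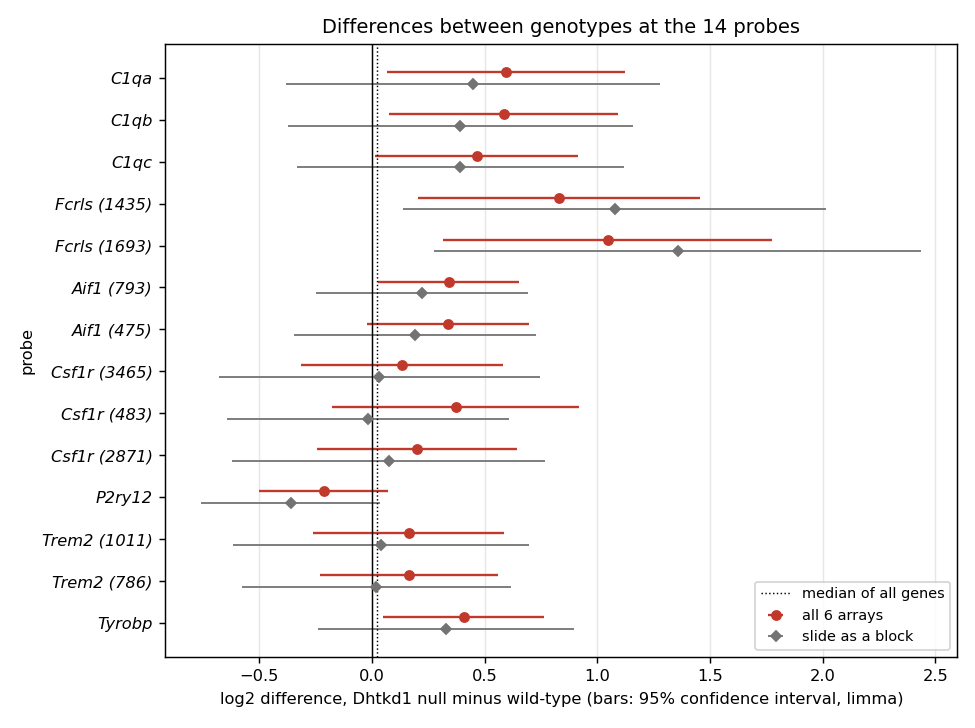
Log2 difference of Dhtkd1 null minus wild-type (horizontal axis) for the 14 probes (vertical axis) with 95% confidence intervals from limma, over all 6 arrays (red circles) and with slide as a block (grey diamonds). The dotted line is the median of all genes, 0.02. With slide as a block the intervals of the 2 Fcrls probes alone lie wholly above 0.

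Across arrays, the 9 genes shared a low level in wild-type replicate 1. The mean of the 9 centred signals was 0.09, 0.24 and 0.22 on the null arrays and -0.50, -0.10 and 0.06 on the wild-type arrays. Wild-type replicate 1 was the lowest array for 8 of the 9 genes and for 12 of the 14 probes. Without that array the median difference was 0.28. The 6 genes whose groups did not overlap could not begin to overlap when an array was left out, so their number without it is no test. The spread of the null arrays was smaller than that of the wild-type arrays at all 3 C1q chains, with SDs of 0.18 in null and 0.39 in wild-type cords for C1qa. All null arrays lay on slide 1 and the wild-type arrays on 2 slides, so genotype and slide cannot be told apart in this spread.

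**Figure D3:**
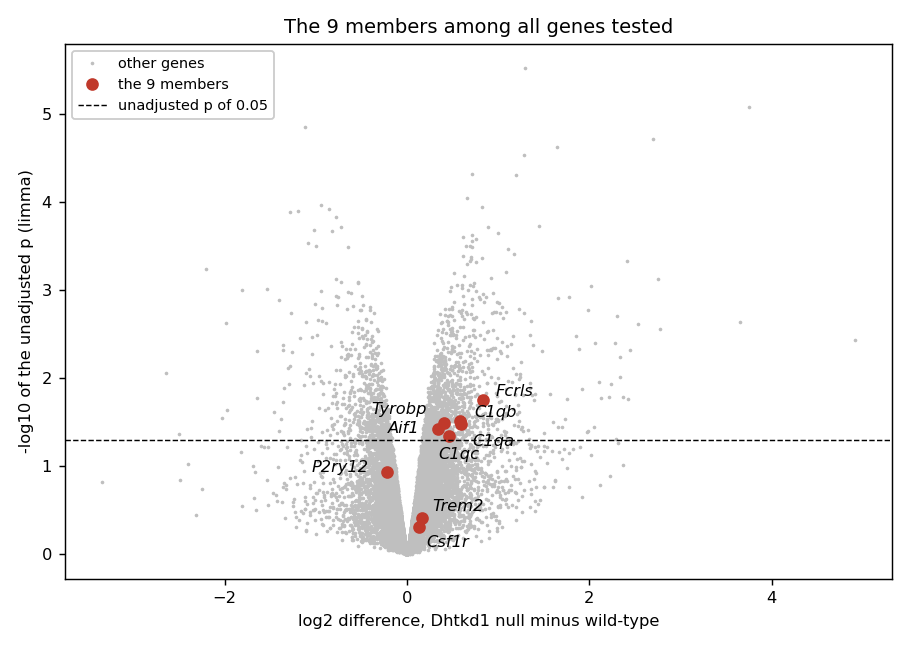
Log2 difference of Dhtkd1 null minus wild-type (horizontal axis) against the -log10 of the unadjusted limma p (vertical axis) for the 9 genes (red, named) and all other genes tested (grey). Fcrls, C1qa, C1qb, C1qc, Tyrobp and Aif1 lie above the dashed line at an unadjusted p of 0.05, inside the cloud of other genes.

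Among the genes whose 6 signals lay closest to the mean profile of the 9, by root mean square distance of centred log2 signals over the 6 arrays among 15493 named genes, were Ltc4s (0.064), Ddit4 (0.067), P2ry6 (0.070), Ceacam1 (0.077), Clec5a (0.078), Ppef2 (0.083) and Fcer1g (0.085). For comparison C1qc lay at 0.067, Aif1 at 0.084 and P2ry12 at 0.332 from this mean, which they help to form. Ltc4s encodes leukotriene C4 synthase, Fcer1g the signalling chain of Fc receptors, and Clec5a a lectin receptor that couples to Tyrobp. Of the other homeostatic microglia genes, the microglial surface protein gene Tmem119 came 84th in this order, while the chemokine receptor gene Cx3cr1 came 2855th. Their distances share the same 6 arrays and carry no test.

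A list of 26 other genes of resting (homeostatic) microglia held 20 (76.9%) with a higher and 6 with a lower mean in null cords, against 55.9% of all genes higher, with a median difference of 0.18. At an unadjusted p under 0.05, 4 (15.4%) were higher, against 5.81% of all genes, and 0 were lower. After adjustment 0 passed. The 3 of smallest p were Mertk, a phagocytic receptor, with a difference of 0.53 (SE 0.15), Csf3r, the G-CSF receptor, with 0.43 (SE 0.13), and Gpr84, a fatty acid receptor, with 0.74 (SE 0.27), with limma adjusted p of 0.530, 0.552 and 0.591. The protease gene Ctss differed by 0.44. Cx3cr1, the fractalkine receptor, had 0.03, 0.22 and 0.11 on the null arrays, against 0.03, 0.25 and 0.00 on the wild-type arrays, a difference of 0.02 (SE 0.10). Tmem119 differed by 0.16 (SE 0.21). With slide as a block some genes with a higher mean were instead lower in null cords, among them Sall1 (-0.19), Itgam (-0.19), Selplg (-0.17) and Cx3cr1 (-0.13). Most of the list was higher in that fit, such as Mertk (0.84) and Tmem119 (0.08). The count of 4 ranged from 1 to 7 when 1 array was left out, with 1 when either null replicate 2 or wild-type replicate 1 was dropped, and 7 when wild-type replicate 2 was. It was 1 with slide as a block.

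Among 20 measured partners and relatives of Trem2 and Tyrobp, 7 (35.0%) were higher and 0 lower at an unadjusted p under 0.05, against 5.81% and 2.94% of all genes, with a median difference of 0.31 and 0 past adjustment. Treml1, a Trem family receptor that directly follows Trem2 in the gene table, had -2.94, -2.70 and -2.53 on the null arrays, against -3.97, -3.47 and -3.52 on the wild-type arrays. The groups did not overlap, with a difference of 0.93 (SE 0.17, limma adjusted p 0.358). Cd300lf, an inhibitory receptor of myeloid cells, differed by 1.23 (SE 0.33), and by 0.76 at its other probe. Lcp2, an adaptor downstream of Syk, differed by 0.52 (SE 0.15). Inpp5d, the phosphatase SHIP1 that restrains Trem2 signalling, differed by 0.37 (SE 0.10). The other 3 were Zap70 (0.50), Trem1 (0.57) and Clec5a (0.30), while the kinase gene Syk differed by 0.36 (SE 0.21) and the phospholipase gene Plcg2 by 0.14 (SE 0.11). Trem1 was well above background on 5 of 6 arrays. The count of 7 ranged from 5 to 7 when 1 array was left out, but was 2 with slide as a block and 4 with quantile normalization or the authors' value table.

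Other complement genes were read beside C1q. Of 30 measured genes of the classical pathway, its receptors and regulators, 2 (6.67%) were higher and 0 lower at an unadjusted p under 0.05, a share near the 5.81% of all genes, and the median difference was 0.05. The count was 1 without null replicate 2, null replicate 3 or wild-type replicate 2, and 0 with slide as a block. C1ra, the protease bound to C1q, differed by -0.57 (SE 0.72) and its partner C1s1 by -0.64 (SE 0.57). C3, the central component, had 4.57, 3.98 and 4.06 on the null arrays, against 3.12, 4.54 and 4.38 on the wild-type arrays, with overlapping groups and a difference of 0.19 (SE 0.40). C4b differed by 0.32 (SE 0.36). C3ar1, the C3a receptor, had -4.60, -4.24 and -3.83 on the null arrays, against -4.89, -4.98 and -4.88 on the wild-type arrays, without overlap, and differed by 0.70 (SE 0.19, limma adjusted p 0.530). Masp2 of the lectin pathway differed by 1.07 (SE 0.41), and Calr, a chaperone that also binds C1q, by 0.26 (SE 0.12). Among 15 relatives of C1q that carry its globular domain, 0 were higher and 1, C1qtnf6, was lower at an unadjusted p under 0.05. Of all genes 2.94% were lower at that threshold. C1qtnf6 differed by -0.68 (SE 0.24), and the median of the list was -0.11. With wild-type replicate 1 left out, 2 were higher and 3 lower at that threshold. The lower count was also 3 with replicate number as a block and with trend and robust variance. C1qtnf12 and C1qtnf5 came next by p with -0.27 and -0.33. Whether the C1q genes differ from these lists was not tested.

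Growth factor, Fc receptor and nucleotide genes were read in the same way. Of all genes 5.81% were higher and 2.94% lower at an unadjusted p under 0.05. Of 21 genes of Csf1 receptor ligands, related cytokine receptors and signalling, 3 (14.3%) were higher and 0 lower at an unadjusted p under 0.05 (median 0.07). They were Csf2rb, a receptor chain for other cytokines (1.38, but 0.20 at its other probe), and Inpp5d and Csf3r, which the lists above also hold. The count of 3 ranged from 2 to 3 when 1 array was left out, with 2 higher and 1 lower without wild-type replicate 1. With slide as a block Csf2rb, Inpp5d and Csf3r differed by 1.44, 0.36 and 0.47. The ligand genes Csf1 and Il34 differed by -0.21 (SE 0.23) and 0.08 (SE 0.29). Of 10 genes, 8 for Fc receptors and 2 for ficolins of the lectin pathway, 2 (20%) were higher and 0 lower (median 0.24). The count of higher genes was 6 without wild-type replicate 3, and 1 with normexp correction or quantile normalization. Fcgr4, an activating IgG receptor, had -3.57, -2.87 and -3.26 on the null arrays, against -4.15, -4.56 and -4.25 on the wild-type arrays, without overlap, a difference of 1.09 (SE 0.20, limma adjusted p 0.358). Fcer1a differed by 0.26 (SE 0.08) and Fcgr2b by 0.68 (SE 0.30). Of 18 purinergic receptors and nucleotide enzymes, 0 were higher and 0 lower (median -0.06), with P2rx3 at 0.26, Adora3 at 0.23 and P2ry6 at 0.28 the 3 of smallest p. Of 25 genes of microglial activation, 3 (12%) were higher and 1 lower at an unadjusted p under 0.05, and the median was 0.06. With normexp background correction 1 was higher and 4 were lower, within slide 1 alone 1 was higher and 3 were lower, and with slide as a fixed block 2 were higher and 2 lower. Without null replicate 2 or wild-type replicate 1 the count of higher genes was 1. Cd52 (0.66, SE 0.20), Cybb (0.74, SE 0.29) and Cst7 (1.07, SE 0.42) were the higher ones, while Fabp5 differed by -0.38. Apoe, which damage-associated microglia express along with astrocytes, differed by -0.05 (SE 0.13), Itgax by 0.21 (SE 0.44) and Clec7a by -0.10 (SE 0.18).

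**Figure D4:**
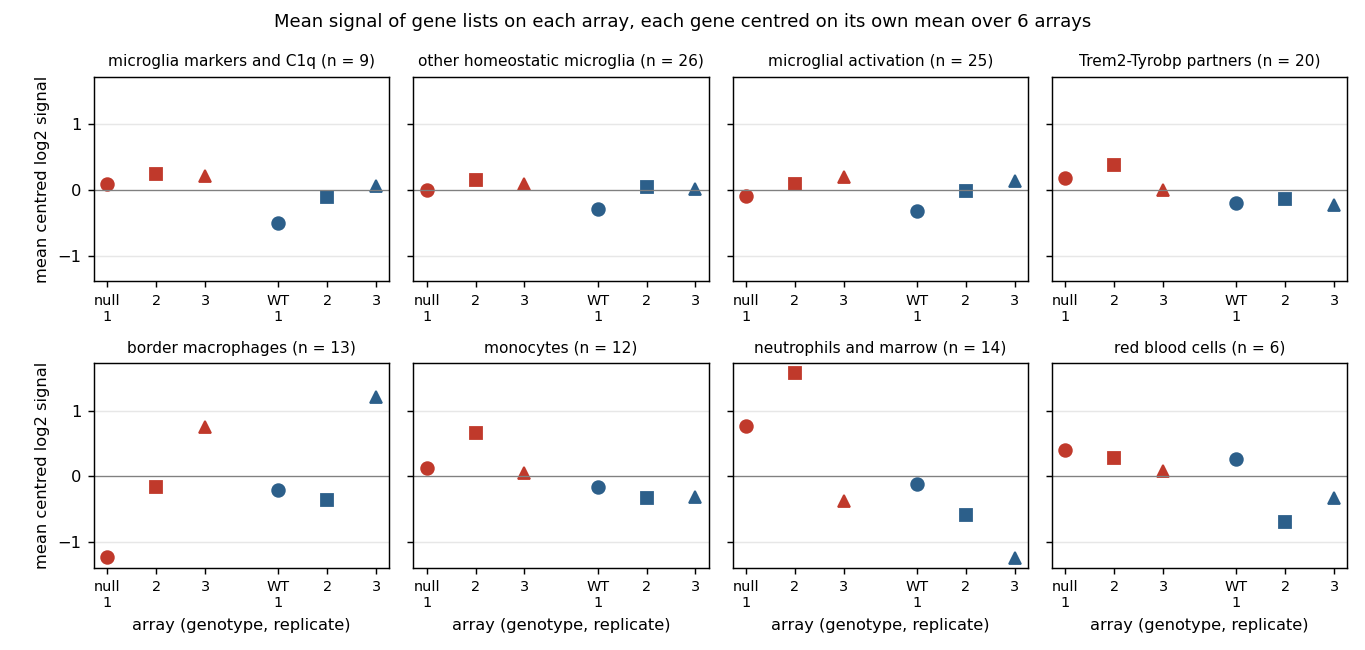
Mean log2 signal of 8 gene lists (panels) on each array, after centring each gene on its own mean over the 6 arrays (vertical axis), with the 3 Dhtkd1 null arrays (red) left of the 3 wild-type arrays (blue) on the horizontal axis. The microglia panels vary little against the neutrophil panel, where null replicates 1 and 2 stand at 0.77 and 1.58, and the border macrophage panel, which runs from -1.22 in null replicate 1 to 1.20 in wild-type replicate 3.

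Markers of other blood and macrophage cells also differed between arrays. Of 14 neutrophil and marrow markers, 14 had a higher mean in null cords, against 55.9% of all genes, with a median difference of 1.20. At an unadjusted p under 0.05, 3 (21.4%) were higher, against 5.81% of all genes (Lcn2 at 2.31, Prtn3 at 1.17 and Ctsg at 2.05). The summed signal of the 14 markers was 43.5 to 168 times the 75th percentile of the array in null and 28.6 to 63.4 times in wild-type cords. The count of 3 was 14 without null replicate 3, and 1 without wild-type replicate 2 or 3 or with slide as a block. Of 12 monocyte markers 10 (83.3%) had a higher mean in null cords. At an unadjusted p under 0.05, 2 (16.7%) were higher, against 5.81% of all genes. They were Ly6c1 (0.85, SE 0.15) and Ly6c2 (1.03, SE 0.19), 2 near-identical genes of which endothelial cells also express the first. Without null replicate 3 that count was 5. Plac8 came next by p with 1.44 (SE 0.62). The summed monocyte signal was 39.7 to 59.6 times the 75th percentile in null and 26.7 to 28.2 times in wild-type cords. Without Ly6c1 and Ly6c2 the other 10 markers summed to 6.90 to 13.1 times in null and 6.67 to 7.61 times in wild-type cords, with overlap. The inflammatory monocyte receptor gene Ccr2 had -4.79, -3.29 and -4.37 on the null arrays, against -4.42, -5.60 and -4.90 on the wild-type arrays, with overlap. Of 13 border and perivascular macrophage markers 2 had a higher and 11 a lower mean in null cords, 0 at an unadjusted p under 0.05 in either direction, with a median of -0.52 and summed signals of 1.84 to 6.62 times the 75th percentile in null and 2.86 to 9.55 times in wild-type cords. Siglec1, Folr2 and Cd209f had the smallest p of that list, with differences of 0.40 (-0.52 at its other probe), -1.11 and -0.52. Mrc1, the mannose receptor of border macrophages, had -4.60, -2.92 and -2.21 on the null arrays, against -2.91, -3.61 and -1.33 on the wild-type arrays. With slide as a block most border macrophage markers were instead higher in null cords, among them Cd163 (0.68), F13a1 (0.67) and Mrc1 (0.37). Folr2 (-0.25), Cd209f (-1.11) and Clec10a (-0.06) were lower in that fit. The 9 genes themselves summed to 25.9 to 29.2 times the 75th percentile in null and 17.0 to 25.1 times in wild-type cords. The part of these cells in the values of the 9 genes was not tested, and these lists are given as measured beside them.

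Of the remaining cell type lists, medians were 0.58 for 6 red blood cell, 0.88 for 7 adipocyte, 0.68 for 9 skeletal muscle, -0.71 for 7 fibroblast and meningeal, -0.35 for 11 oligodendrocyte, 0.10 for 8 endothelial, 0.03 for 10 lymphocyte, 0.01 for 8 astrocyte and -0.02 for 12 neuron markers. The oligodendrocyte, astrocyte and neuron markers were well above background on all 6 arrays, 11 of 11, 8 of 8 and 12 of 12. Across the series the 75th percentile of the processed intensity was 950 to 1055 units, 78.4% to 82.0% of spots were well above background, and r between pairs of arrays was 0.983 to 0.991 over probes. All 14 probes of the 9 genes were well above background on all 6 arrays and 0 were saturated or missing a value. At the 2 Dhtkd1 probes null arrays lay wholly below wild-type arrays, with differences of -1.08 and -1.07 (limma adjusted p 0.0922 and 0.514), and with the deleted part not stated they do not settle where the allele is cut.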

How the data were processed

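Spinal cord RNA of 3 Dhtkd1 null and 3 wild-type samples was read on one-colour Cy3 Agilent arrays (design 014868, placed on mm9). Per the file headers, the deposited scanner files hold spot intensity from Feature Extraction 10.7.3.1, background-subtracted and detrended within the array but not normalized between arrays. The authors' deposited value table is in log2 units; the authors' method is not given in the sources used here, and its columns, with equal medians of 7.22, followed the log2 intensity of their own arrays (r of 0.9997 or more over probes), so that scale and order are known while the normalization, read as quantile, is inferred. It served as an alternative only.

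Signals are the log2 of the processed intensity, less the 75th percentile of its array (non-control spots). Outlier spots (58 to 89 per array) were dropped and repeat spots averaged. Probes well above background on at least 3 of 6 arrays were kept (33190 of 41174), and a gene was represented by its brightest kept probe over all 6 arrays (21438 genes). Symbols were updated through RefSeq names (GRCm38.p6); 27668 probes matched by accession, 5589 by symbol and 471 by synonym, and 7446 retained their file name. No further probe gained one of the 9 symbols that way.

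Differences are Dhtkd1 null minus wild-type from limma 3.58.1 (R 4.3.3; lmFit and eBayes, 2-sided, no covariate), with Benjamini-Hochberg adjustment over all probes and a threshold of 0.05. SD is between arrays of a group, and the small number of arrays limits the precision. With 3 arrays a group, the smallest p of an exact permutation test is 0.1. The fit was tested on simulated data. Named are every probe of the 9 genes, the 3 genes of smallest p in each of 20 lists (only the medians of 9 other cell type lists are given here), Dhtkd1, and the 8 genes nearest to the mean profile of the 9; genes named beyond these are examples chosen for their role, and some genes that the rule names are not reported here. The genes and lists were chosen with earlier results of these data known, so list counts are descriptions beside the count over all genes. Slide was read from the file headers. Alternatives were slide as a fixed or random block, slide 1 alone, replicate number as a block, quantile normalization, median centring, normexp correction (offset 50), the value table, 2 other filters on dim probes, outlier spots kept, the mean of the probes of a gene, trend and robust variance, and each array left out; counts without single arrays and the monocyte sum without Ly6c1 and Ly6c2 were added after seeing the data.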

Additional observations from a re-analysis of the deposited data

How the results depend on the processing

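Across 19 alternative settings, 261 comparisons of single probes of the 9 genes kept the direction of the reported fit except for 5, and 0 passed an adjusted p of 0.05. The 5 exceptions were the Csf1r probe at base 483 with slide as a block and with slide 1 only (-0.018 in both), and, without wild-type replicate 1, the Trem2 probes at bases 1011 (-0.020) and 786 (-0.0069) and the Csf1r probe at base 3465 (-0.058). With 1 array left out these 3 probes ranged up to 0.28, 0.26 and 0.27. Of all 33190 probes 0 passed in the reported fit (2719 at an unadjusted p under 0.05), against 1 with normexp correction and 7 with trend and robust variance, and 0 to 4 with 1 array left out. The median difference of the 9 genes was 0.28 to 0.47 with 1 array left out and 0.33 with slide as a block. The count of genes at an unadjusted p under 0.05, 6 as reported, was 1 with slide as a block and 1 with slide 1 only, and 1 to 6 with 1 array left out. In slide 1 the wild-type group is 1 array, assumed to vary like the others. Replicate numbers did not pair the samples: deviations of same-numbered arrays correlated at -0.02, -0.09 and 0.30. With the replicate number as a block 5 of the 9 genes had an unadjusted p under 0.05, the median difference was 0.41 and 0 probes passed. Of 380 medians of gene lists 17 moved by more than the spread between arrays, 12 of them with slide as a block or slide 1 only. The cause of these shifts was not tested.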
